A study of Homo sapiens with 6 samples.

Results

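The small RNA silencing machinery was followed through 10 genes chosen by name from the 58302 genes of the deposited table: DROSHA, XPO5, DICER1, the Argonaute genes AGO1, AGO2, AGO3 and AGO4, and the GW182 genes TNRC6A, TNRC6B and TNRC6C. All 10 names matched a single row each. In the nucleus the ribonuclease DROSHA cuts hairpins out of primary microRNA transcripts, and exportin 5 (XPO5) carries the hairpins to the cytoplasm, where DICER1 trims them to short duplexes. An Argonaute protein keeps one strand as a guide and binds messenger RNAs that pair with its seed, and a GW182 protein (the TNRC6 family) bridges Argonaute to the enzymes that shorten the poly(A) tail and remove the cap. Transfected siRNAs skip the nuclear steps and are loaded onto the same Argonaute proteins, so a knockdown relies on part of the apparatus that these genes encode.

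Polyadenylated RNA was sequenced from ME180, an epithelial cell line from a cervical cancer, collected 48 h after cells received either a control siRNA (siControl, replicates 2, 3 and 4) or an siRNA against the kinase SGK1 (siSGK1, replicates 2, 3 and 4). The design text calls the 3 libraries of a group biological repeats. Both groups received an siRNA, and no untransfected cells were analysed here, so effects of transfection that both groups share are not seen. A single cell line was used, and the sources used here do not give the siRNA sequences.

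Values are FPKM, a read level scaled for gene length and library size. The libraries held 27262794 to 35242643 reads assigned to genes. SGK1 fell in every siSGK1 library, from 3.91, 4.27 and 4.17 FPKM in siControl to 1.58, 1.70 and 1.81 FPKM in siSGK1 (log2 change −1.07, SE 0.07, adjusted p = 1.88e-05). The exact two-sided permutation test of SGK1 gave p = 0.1, the smallest that 3 against 3 libraries allow. The choice of scaling moves the genes of a library together. The median tested gene had a log2 change of −0.0060 with the deposited scaling, 0.12 with total-read scaling and 0.19 with TPM scaling, and of the called genes 44.2%, 73.6% and 82.8% were higher. Each direction below is therefore relative to the median gene. All 7 epithelial markers were present, and their summed level was 8366 to 8841 FPKM in siControl and 5412 to 6322 FPKM in siSGK1, lower in every siSGK1 library. The 6 fibroblast markers summed to 4.70 to 5.72 FPKM, nearly all of it COL1A1, the 5 leukocyte markers to 0.151 to 0.383 FPKM, and the 4 endothelial markers to 1.39 to 1.66 FPKM in siControl and 0.710 to 0.903 FPKM in siSGK1, with PECAM1 at 0. Their part in the results was not tested. In bulk RNA, fewer cells that express a gene and less of its RNA per cell cannot be told apart.

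The machinery did not move as a block. Of the 10 genes, 7 had a mean of at least 1 FPKM and were tested: DROSHA, XPO5 and AGO1 rose, TNRC6A and AGO2 fell, and DICER1 and AGO4 were not called. Calls are an adjusted p under 0.05 from limma, fitted to the 11945 genes at or above that level. That fit called 40.6% of genes (17.9% higher and 22.7% lower), so many changes of modest size passed in these libraries, and 5 calls among 7 genes is not read as particular to the machinery. The count also rests on single libraries: without siControl replicate 3 it was 2 (DROSHA and TNRC6A), and without siSGK1 replicate 2 or siSGK1 replicate 4 it was 3. The median log2 change of the 7 was 0.0083, beside −0.0060 for all tested genes. AGO3, TNRC6B and TNRC6C had means below 1 FPKM and are described by their values and by fits that include low genes. The groups did not overlap for 5 of the 7 tested members, against 53.4% of all tested genes. The plot of levels by library shows the narrow spread within most groups and the gap of TNRC6A.

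**Figure D1:**
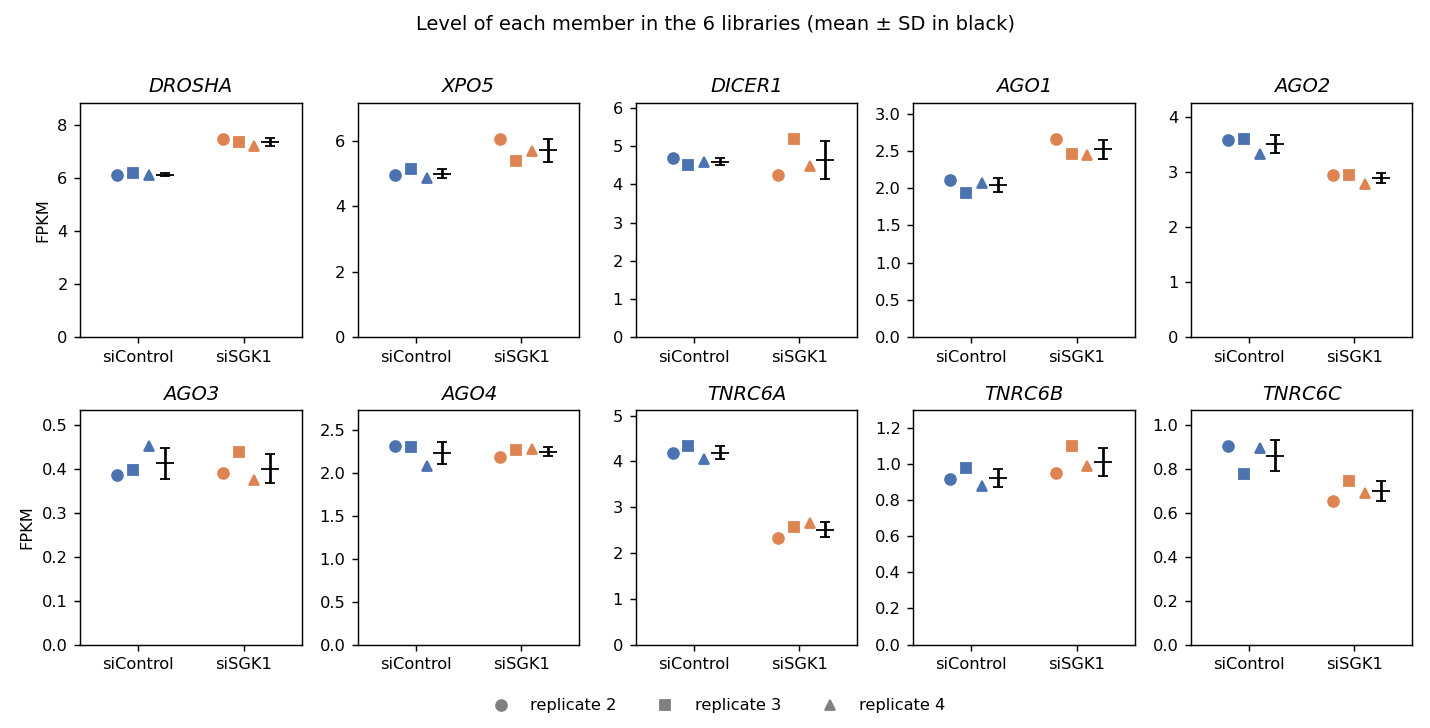
FPKM of each of the 10 genes (vertical axes from 0, one scale per gene) in the 3 siControl and 3 siSGK1 libraries, with marker shapes for replicate numbers and the mean ± SD in black. TNRC6A shows the widest gap, from 4.19 FPKM to 2.51 FPKM on average, while DICER1 is spread by siSGK1 replicate 3.

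The transcripts of the nuclear steps, DROSHA and less securely XPO5, were higher in siSGK1. DROSHA (ENSG00000113360, GRCh38 chromosome 5, 31400497 to 31532196, minus strand) stood at 6.11, 6.18 and 6.11 FPKM in the controls, and siSGK1 libraries gave 7.50, 7.38 and 7.20 FPKM. The control libraries lay close together, and every siSGK1 library lay above them. DROSHA rose 1.20-fold (log2 change 0.24, SE 0.05, adjusted p = 0.0036). Of all tested genes, 14.8% had a higher log2 change. DROSHA was covered by 1248 to 2053 reads per library, and its call held without any one library and under each scaling tried.

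XPO5, the export receptor (ENSG00000124571, chromosome 6, 43522330 to 43576075, minus strand), had control values of 4.96, 5.14 and 4.87 FPKM, against 6.07, 5.37 and 5.70 FPKM after siSGK1. The groups did not overlap, although siSGK1 replicate 3 came close to the highest control. XPO5 rose 1.14-fold (log2 change 0.18, SE 0.06, adjusted p = 0.040). That call was the least secure of the 5: it was lost when any library other than siSGK1 replicate 3 was left out (adjusted p up to 0.14), without the level filter (adjusted p = 0.091) and with the replicate number as a block (adjusted p = 0.067). In addition, 4.08% of the exon bases of XPO5 overlap POLR1C, a tested gene on the opposite strand, with which it may share reads.

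DICER1, the cytoplasmic ribonuclease (ENSG00000100697, chromosome 14, 95086228 to 95158010, minus strand), had control values of 4.70, 4.52 and 4.58 FPKM, against 4.24, 5.20 and 4.49 FPKM after siSGK1. The siSGK1 libraries fell on both sides of the controls. The SD was 0.091 FPKM in siControl and 0.501 FPKM in siSGK1, where replicate 3 stood above all other libraries. DICER1 was not called (log2 change 0.0083, 95% interval −0.16 to 0.18, adjusted p = 0.94), and without siSGK1 replicate 3 its log2 change was −0.069 (adjusted p = 0.37). That library also stood apart across all tested genes: its chi-square per degree of freedom against the other siSGK1 libraries was 9.72 and 9.08, compared with 3.64 to 6.35 for the other 4 pairs within a group. Without it, DROSHA, XPO5, AGO1, AGO2 and TNRC6A were still called, with adjusted p of 0.0083, 0.023, 0.031, 0.024 and 0.00083. The FPKM of DROSHA over that of DICER1 was 1.30, 1.37 and 1.33 in the controls, against 1.77, 1.42 and 1.61 after siSGK1. Each siSGK1 library thus had a higher ratio of the transcripts than every control, though siSGK1 replicate 3 came close to siControl replicate 3.

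Among the Argonautes, AGO1 and AGO2 moved in opposite directions and AGO4 was not called. AGO1 (ENSG00000092847, chromosome 1, 35869808 to 35930528, plus strand), one of the Argonautes without strong slicing activity, had control values of 2.12, 1.93 and 2.07 FPKM, against 2.67, 2.46 and 2.44 FPKM after siSGK1. All siSGK1 libraries lay above all controls. AGO1 rose 1.24-fold (log2 change 0.25, SE 0.07, adjusted p = 0.018). Leaving out siControl replicate 3 (adjusted p = 0.069) or siSGK1 replicate 2 (adjusted p = 0.068) ended the call, with a log2 change of 0.22 in each case.

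AGO2 (ENSG00000123908, chromosome 8, 140520156 to 140635619, minus strand) encodes the Argonaute that cuts targets paired along the whole guide, the activity through which siRNAs cleave their intended messenger. It had control values of 3.58, 3.60 and 3.31 FPKM, against 2.94, 2.94 and 2.77 FPKM after siSGK1. The groups did not overlap, and AGO2 fell to 82.5% of the control level (log2 change −0.24, SE 0.06, adjusted p = 0.014). This fall is relative to the median gene: it was −0.12 when scaled by total reads (adjusted p = 0.17), and TPM scaling gave −0.069 (adjusted p = 0.44). It was also lost without siControl replicate 3 (adjusted p = 0.056) or siSGK1 replicate 4 (adjusted p = 0.053).

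AGO4 (ENSG00000134698, chromosome 1, 35808172 to 35857890, plus strand) had control values of 2.31, 2.30 and 2.08 FPKM, against 2.18, 2.27 and 2.27 FPKM after siSGK1. The ranges overlapped, and AGO4 was not called (log2 change 0.0070, 95% interval −0.14 to 0.16, adjusted p = 0.94). AGO3 (ENSG00000126070, chromosome 1, 35930718 to 36072500, plus strand) was the lowest of the 10 genes, with control values of 0.387, 0.399 and 0.452 FPKM, against 0.391, 0.438 and 0.374 FPKM after siSGK1. Its 215 to 307 reads per library gave ranges that overlapped. In the fit without a level filter, which called 11.8% of 31878 genes, AGO3 had a log2 change of −0.019 (adjusted p = 0.92).

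AGO4, AGO1 and AGO3 lie next to each other on the plus strand of chromosome 1, with 11917 bases between AGO4 and AGO1 and 189 bases between AGO1 and AGO3. Of the 3 neighbours AGO1 was called, AGO4 was tested and not called, and AGO3 lay below the level filter of the main fit. The longest run of bases shared exactly by transcripts of an Argonaute pair was 43 (AGO3 and AGO4), and AGO1 shared at most 32 with another. The sources used here do not say how reads that fit both copies were counted.

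With the deposited scaling, the summed level of the 4 Argonaute genes differed by less than its spread, while its makeup differed between the groups. It came to 8.18 ± 0.24 FPKM in the controls and 8.05 ± 0.17 FPKM after siSGK1 (SD, n = 3 each). Unlike the shares, this sum depends on the scaling. Total-read scaling multiplies it by 0.952 to 0.967 in siControl libraries and by 1.04 to 1.09 in siSGK1 libraries. These family shares are a description, with no test. AGO2 supplied 42.7% ± 0.96 of it in siControl and 35.8% ± 0.53 in siSGK1, and AGO1 supplied 25.0% ± 1.3 and 31.3% ± 1.2. AGO4 held 27.2% and 27.9%, and AGO3 5.06% and 4.98%. The FPKM of AGO1 over that of AGO2, which no scaling of libraries can change, was 0.592, 0.537 and 0.625 in the controls, against 0.906, 0.835 and 0.881 after siSGK1. AGO2 remained the highest of the family in every library, but AGO1 came close to it in siSGK1. Levels of different genes rest on the deposited gene lengths, which count very long 3′ UTRs (16755 bases in AGO3), so a gene that uses shorter forms is understated. By reads in place of FPKM, AGO2 held 51.0% in siControl and 43.3% in siSGK1.

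**Figure D2:**
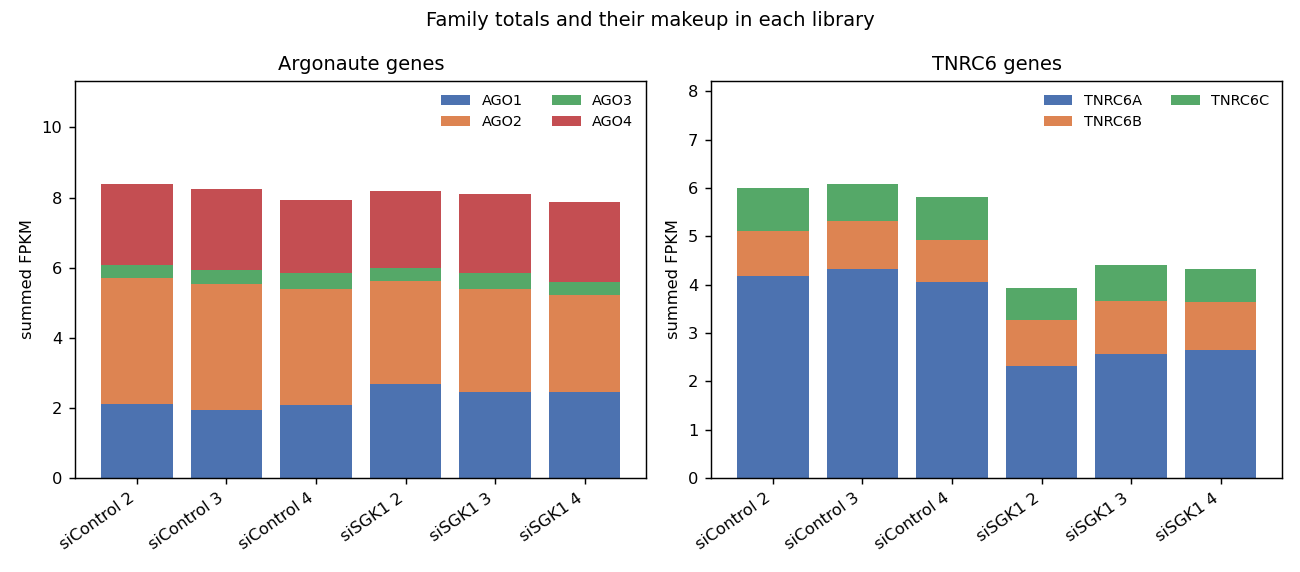
Summed FPKM (vertical axes from 0) of the Argonaute genes (left) and of the TNRC6 genes (right) in each of the 6 libraries, divided by gene. With the deposited scaling, the Argonaute total is close to 8 FPKM in all libraries with a larger AGO1 part in siSGK1. The TNRC6 total is lower in siSGK1, with a smaller TNRC6A part.

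TNRC6A showed the largest change of the tested members. It encodes GW182, the scaffold that binds Argonaute through its glycine and tryptophan repeats and recruits the deadenylases. TNRC6A (ENSG00000090905, chromosome 16, 24610209 to 24827632, plus strand) had control values of 4.18, 4.33 and 4.05 FPKM, against 2.32, 2.57 and 2.64 FPKM after siSGK1. The lowest control stood well above the highest siSGK1 library. TNRC6A fell to 59.9% of the control level (log2 change −0.64, SE 0.06, adjusted p = 1.50e-04), and 3.12% of tested genes had a lower log2 change. These values rest on 1419, 1452 and 1412 control reads, against 883, 1099 and 1251 reads after siSGK1. The fall held under every alternative in which TNRC6A was tested, from −0.74 with voom on recovered reads to −0.51 with TPM scaling.

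The paralogs of TNRC6A were low. TNRC6B (ENSG00000100354, chromosome 22, 40044817 to 40335808, plus strand) had control values of 0.919, 0.977 and 0.877 FPKM, against 0.949, 1.10 and 0.990 FPKM after siSGK1, with 1 siSGK1 library inside the control range. TNRC6C (ENSG00000078687, chromosome 17, 77959240 to 78108835, plus strand) had control values of 0.902, 0.777 and 0.895 FPKM, against 0.655, 0.745 and 0.690 FPKM after siSGK1, with no overlap. Without the level filter neither was called (TNRC6B log2 change 0.086, adjusted p = 0.59; TNRC6C −0.18, adjusted p = 0.30). Tested on recovered reads with voom, a fit that called 27.5% of 21913 genes, TNRC6C had a log2 change of −0.30 (SE 0.11, adjusted p = 0.035), TNRC6B 0.13 (adjusted p = 0.25) and AGO3 −0.045 (adjusted p = 0.81). The call of TNRC6C thus depends on the test. Antisense exons of TNRC6C-AS1 cover 12.9% of its exon bases.

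TNRC6A made up most of the TNRC6 total in every library. The summed FPKM, with the deposited scaling, came to 5.97 ± 0.13 in the controls and 4.22 ± 0.26 after siSGK1 (SD, n = 3 each), again with no test. TNRC6A held 70.1% ± 0.89 of the sum in siControl and 59.5% ± 1.5 in siSGK1, and TNRC6B 15.5% ± 0.52 and 24.0% ± 1.0. The FPKM of TNRC6A over that of AGO2, its binding partner, was 1.17, 1.20 and 1.22 in the controls, against 0.790, 0.873 and 0.953 after siSGK1. On this per-length scale TNRC6A was above AGO2 in each control library and below it in each siSGK1 library. By reads it was below AGO2 in all 6 libraries, by as little as 1412 against 1414 in siControl replicate 4.

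**Figure D3:**
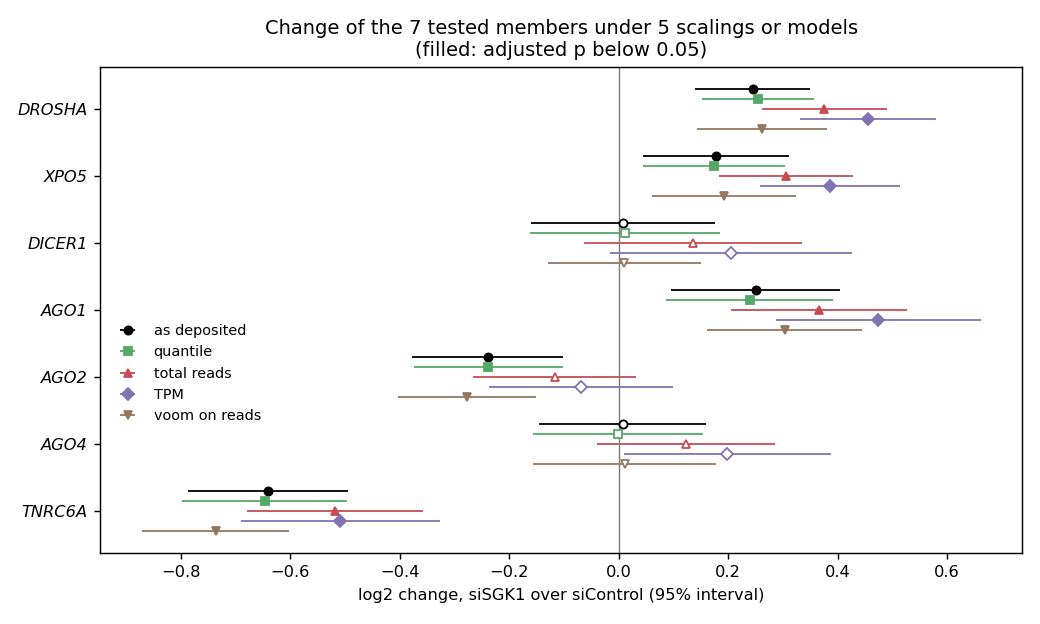
Log2 change of the 7 tested members (horizontal axis, siSGK1 over siControl, with 95% intervals) under the deposited scaling, quantile normalization, total-read scaling, TPM scaling and voom on recovered reads, filled where the adjusted p was below 0.05. TNRC6A is lower and DROSHA, XPO5 and AGO1 higher under all 5, while AGO2 loses its call under total-read and TPM scaling.

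Among partners of the nuclear and dicing steps, DGCR8, ADAR and SRRT rose and TARBP2 fell. Of 10 genes listed, 9 were tested, 3 rose and 1 fell, and their median log2 change was 0.15 against −0.0060 for all tested genes. Of all tested genes 17.9% rose and 22.7% fell. The count of this list moves with the scaling, to 8 higher and 0 lower with either total-read or TPM scaling. Those scalings called 5855 and 6816 of all 11945 tested genes, with 73.6% and 82.8% of the calls higher. DGCR8, which holds the hairpin for DROSHA, had control values of 3.21, 3.41 and 3.43 FPKM, against 3.84, 4.17 and 4.14 FPKM after siSGK1. It rose 1.21-fold (log2 change 0.24, SE 0.06, adjusted p = 0.012). ADAR, which edits adenosines in double-stranded RNA and is interferon-inducible, rose from 26.4 ± 1.0 to 34.9 ± 0.9 FPKM (log2 change 0.40, adjusted p = 3.04e-04). SRRT, a cofactor of primary microRNA processing chosen for mention once its values were seen, changed by 0.19 log2 units (adjusted p = 0.042). The call of SRRT was lost without the level filter (adjusted p = 0.13). TARBP2, the double-stranded RNA binding partner of DICER1, fell from 13.3 ± 0.7 to 11.4 ± 1.0 FPKM (log2 change −0.22, adjusted p = 0.040). The call of TARBP2 was lost under total-read scaling (−0.082, adjusted p = 0.27), TPM scaling (−0.022, adjusted p = 0.76) and without the level filter (adjusted p = 0.14), and also without siControl replicate 2 or 3 or siSGK1 replicate 3 or 4 (adjusted p up to 0.13). LIN28B, which blocks let-7 maturation, had at most 1 read per library.

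The DGCR8 messenger itself carries hairpins that the DROSHA and DGCR8 complex is known to cut, which makes it a reporter of that complex as well as a part of it. A mature microRNA from each hairpin that RefSeq (GRCh38.p14) places in an exon of DGCR8 is shown to mark it. The capitals are the seed, bases 2 to 8, and the sequences run 5′ to 3′. They lie at chr22:20085797-20085818 and chr22:20086072-20086093 on the plus strand.
hsa-miR-3618: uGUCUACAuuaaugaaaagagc
hsa-miR-1306-5p: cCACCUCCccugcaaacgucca
The table counts the messenger, not these microRNAs, and the cutting of DGCR8 was not measured.

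Among chaperones and partners of Argonaute, AHSA1 and FMR1 rose and MOV10 fell. Of 11 genes listed as loading chaperones or protein partners, 10 were tested, 6 rose and 1 fell (median log2 change 0.17). Of all tested genes 17.9% rose and 22.7% fell. Without the level filter 4 of the list were called higher, and with total-read or TPM scaling 7 were. Those 2 scalings called 5855 and 6816 of all 11945 tested genes, with 73.6% and 82.8% of the calls higher. The HSP90 cochaperone AHSA1 rose from 47.3 ± 1.5 to 60.9 ± 0.7 FPKM (log2 change 0.36, adjusted p = 3.12e-04). FMR1, an RNA-binding protein that associates with Argonaute complexes, rose from 7.82 ± 0.39 to 9.88 ± 0.70 FPKM (log2 change 0.32, adjusted p = 0.0047). MOV10, an RNA helicase found with AGO2, had control values of 16.3, 16.2 and 15.9 FPKM, against 9.31, 8.58 and 9.29 FPKM after siSGK1. It fell to 56.1% of the control level in a narrow spread (log2 change −0.80, SE 0.05, adjusted p = 1.57e-05), the lowest change among all members and listed partners that were tested.

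The deadenylases and decapping factors act downstream of TNRC6 proteins. Among 15 genes listed as deadenylase subunits or poly(A)-binding proteins, all tested, 4 rose and 1 fell (median log2 change 0.11). Of all tested genes 17.9% rose and 22.7% fell. CNOT7, a catalytic deadenylase subunit, had a control level of 2.17 ± 0.19 FPKM and 3.21 ± 0.16 FPKM after siSGK1, so it rose 1.48-fold (log2 change 0.48, SE 0.07, adjusted p = 0.0013). PABPC4, a poly(A)-binding protein, rose from 10.4 ± 0.03 to 12.2 ± 0.1 FPKM (log2 change 0.22, adjusted p = 0.0037). The other genes of this list that rose, CNOT6 and CNOT6L, named after their values were seen, are paralogous deadenylases with log2 changes of 0.23 and 0.19. Their adjusted p were 0.014 and 0.049 by limma, and the call of CNOT6L was lost without the level filter (adjusted p = 0.086). CNOT11, a scaffold subunit, fell from 24.3 ± 0.7 to 20.9 ± 0.4 FPKM (log2 change −0.21, adjusted p = 0.0053), a call lost under total-read scaling (−0.073) and TPM scaling (−0.011). With total-read scaling 10 of the 15 were called higher and 0 lower, and with TPM scaling 13 and 0. Those scalings called 5855 and 6816 of all 11945 tested genes, with 73.6% and 82.8% of the calls higher. Of 9 tested decapping and decay genes 3 rose and 0 fell by limma, with 0 lower at an unadjusted p under 0.05 and 0 called lower by voom on recovered reads. With total-read scaling 5 were called higher, and with TPM scaling 8. The decapping enzyme DCP2 rose from 1.44 ± 0.06 to 2.00 ± 0.17 FPKM (log2 change 0.36, adjusted p = 0.0068), EDC3, an enhancer of decapping, from 9.30 ± 0.64 to 11.9 ± 1.1 FPKM (0.33, adjusted p = 0.0094), and PATL1, a decapping scaffold, from 12.5 ± 0.5 to 14.6 ± 0.6 FPKM (0.21, adjusted p = 0.014). Exons of EDC3 overlap those of CLK3 on the other strand over 13.7% of its bases, and its call was lost without the level filter (adjusted p = 0.053).

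Of 9 tested genes of microRNA tailing and turnover, 1 rose and 1 fell. With total-read scaling 5 were called higher and 1 lower, with TPM scaling 6 and 0, and without siControl replicate 2 the counts were 0 and 2. Total-read and TPM scaling called 5855 and 6816 of all 11945 tested genes, with 73.6% and 82.8% of the calls higher. ZSWIM8, the receptor of a ubiquitin ligase that destroys Argonaute bound to certain targets, fell from 12.5 ± 0.7 FPKM to 80.1% of that level (log2 change −0.31, adjusted p = 0.0072; −0.12 and not called with TPM scaling). TSN, a subunit of the nuclease that removes passenger strands, rose from 11.2 ± 0.2 to 12.8 ± 0.5 FPKM (log2 change 0.18, adjusted p = 0.016), a call lost without siControl replicate 2 (adjusted p = 0.053). PNPT1, a mitochondrial exoribonuclease, was not called (0.19, adjusted p = 0.061), but was called higher under 6 alternatives. These included total-read scaling (0.32, adjusted p = 0.012), leaving out siControl replicate 4 (adjusted p = 0.031) and voom on recovered reads (adjusted p = 0.029). The germline PIWI Argonautes were near absent: the highest of the 4, PIWIL2, had a mean of 0.197 FPKM and at most 41 reads in a library. Across the 6 lists with tested genes, the host transcripts included, 20 of 59 rose and 5 fell, where 17.9% of all tested genes rose and 22.7% fell. This balance moves with the scaling, as given for each list.

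**Figure D4:**
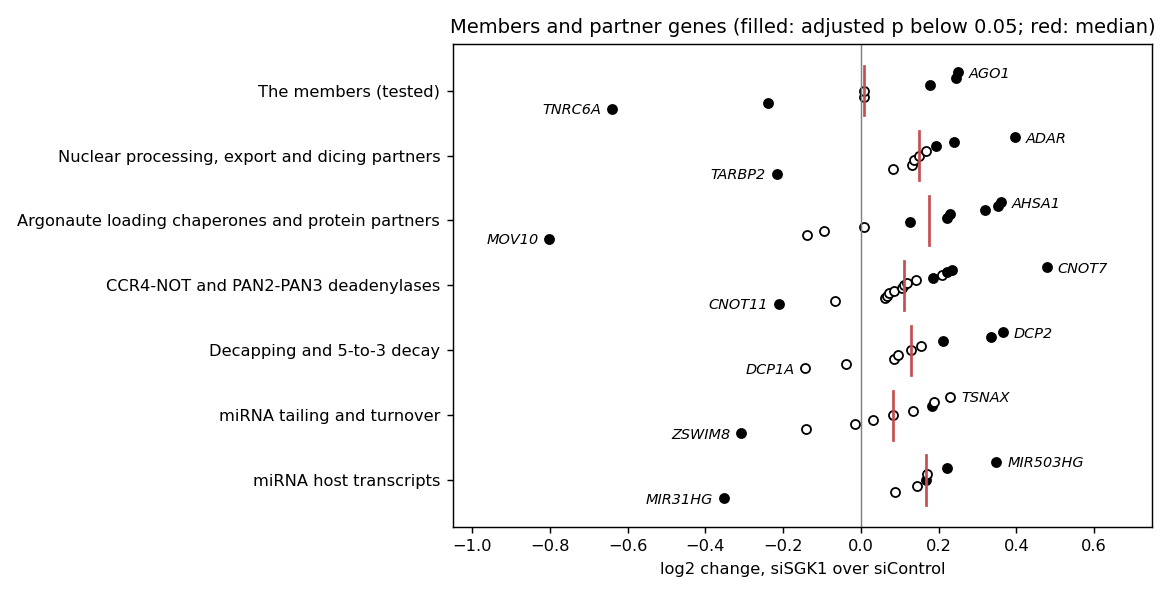
Log2 change (horizontal axis, siSGK1 over siControl) of the tested members and of the tested genes of each partner list, 1 point per gene, filled where the adjusted p was below 0.05, with the median in red. The medians of the lists lie between 0.08 and 0.17, and TNRC6A, among the members, and MOV10, among the partners, stand at the low end.

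The transcripts that give rise to microRNAs were measured only as polyadenylated host RNA. Of 11 hosts listed, 7 were tested, 3 rose and 1 fell, where 17.9% of all tested genes rose and 22.7% fell. With total-read scaling 6 were called higher and 1 lower, and with TPM scaling 6 and 0. Those scalings called 5855 and 6816 of all 11945 tested genes, with 73.6% and 82.8% of the calls higher. Only 1 was called higher without the level filter, and likewise without siControl replicate 2, 3 or 4 or siSGK1 replicate 3. MIR205HG rose from 38.4, 40.3 and 43.1 FPKM to 44.9, 49.4 and 48.1 FPKM (log2 change 0.22, adjusted p = 0.014), a call lost without siControl replicate 2 (adjusted p = 0.051) and without the level filter (adjusted p = 0.056). MIR31HG fell from 18.6, 19.8 and 16.9 FPKM to 13.6, 14.0 and 15.4 FPKM (log2 change −0.35, adjusted p = 0.0041; −0.16 and not called with TPM scaling). Of its exon bases 40.7% lie opposite the pseudogene IFNWP19, so its value is uncertain. MIR503HG rose from 0.852 ± 0.079 to 1.22 ± 0.13 FPKM (log2 change 0.35, adjusted p = 0.020) on 35 to 76 reads per library, a call lost without siControl replicate 3 or 4, without siSGK1 replicate 3 (adjusted p up to 0.059), without the level filter (adjusted p = 0.075) and by voom over genes with at least 10 reads (adjusted p = 0.076). MIR4435-2HG, also chosen for mention once its values were seen, changed by 0.17 log2 units (adjusted p = 0.031).

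The main mature microRNAs that RefSeq (GRCh38.p14) places inside MIR205HG, MIR31HG and MIR503HG are shown, since they are the guides whose supply these hosts bear on. None lies wholly inside an annotated exon of its host in GENCODE 29. The seed is in capitals and the sequences run 5′ to 3′. They lie at chr1:209432166-209432187 on the plus strand, and at chr9:21512158-21512178 and chrX:134546371-134546393 on the minus strand.
hsa-miR-205-5p: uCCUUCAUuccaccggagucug
hsa-miR-31-5p: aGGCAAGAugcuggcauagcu
hsa-miR-503-5p: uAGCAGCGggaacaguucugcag
No seed is shared among the 3. The mature forms were not measured, and a host level need not follow them.

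The 3′ UTRs of the machinery are long, and several hold all or part of a word whose genes had a lower median in these libraries. An earlier search over the same data had picked the octamer CTATGCAA and its heptamers CTATGCA and TATGCAA as words whose genes were lower in siSGK1, so the class values are a description and carry no test. Words were searched on the transcript strand alone, in the longest annotated 3′ UTR of each gene, and the octamer contains both heptamers. Of 10271 tested protein-coding genes with a 3′ UTR of at least 50 bases, 285 (2.77%) held the octamer and had a median log2 change of −0.15, 1383 (13.5%) held only a heptamer (−0.019), and 8603 held none (−0.0030). Among genes with a 3′ UTR above the median of 1304 bases, where most members fall, the 235 with the octamer had a median of −0.10 and 37.9% were called lower, beside 0.028 and 17.3% for those with no match. The 1151 of these with only a heptamer lay near the no-match class, with a median of −0.0071, 23.5% called lower and 15.7% called higher. Among shorter 3′ UTRs the 50 with the octamer had a median of −0.44 and 76.0% were called lower, beside −0.035 and 26.5% with no match. The members had a median 3′ UTR of 4278 bases, and 9 of the 10 lay above the 1304 bases. How frequent a match is depends on this length: among genes with a 3′ UTR within 20% of the member's own, at least a heptamer was held by 8.56% for DROSHA, 22.6% for TNRC6A, 32.7% for DICER1 and 57.1% for AGO1.

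Of the 10 members, 6 held a match: AGO1, AGO2, AGO3, TNRC6A, TNRC6B and TNRC6C. Only AGO1 held the octamer, and the others held heptamers alone. DROSHA, XPO5, DICER1 and AGO4 held none, and neither did SGK1. The 3′ UTR of TNRC6A (2420 bases) held CTATGCA once. Of genes with a 3′ UTR of similar length, 11.8% held that heptamer and 22.6% held any match, and 3.47% of the 1383 genes of the heptamer class had a change as low. MOV10, with a 3′ UTR of only 239 bases, held the octamer from base 223 on, and of 517 tested genes with a 3′ UTR within 20% of that length it was the single one. The words were picked from these same data, so a match in a lower gene, MOV10 and TNRC6A included, is a description and carries no test. AGO1 also held the octamer, within 10921 bases, and rose, whereas 93.0% of the octamer class had a change at or below its own. AGO2 held each heptamer at 2 places in 11888 bases, and 20.3% of the heptamer class had a change as low. FMR1 and DCP2, among the partners named above, each held a heptamer and rose, while ZSWIM8, CNOT11 and TARBP2 held none and fell.

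The windows around the matches of TNRC6A and MOV10 and around the octamer of AGO1 are shown because these genes carry all or part of the word and changed in opposite directions. The word is in capitals, flanked by transcript sequence from GENCODE 29 (GRCh38), 5′ to 3′, all on the plus strand at chr16:24825073-24825102, chr1:112700719-112700746 and chr1:35921636-35921665.
TNRC6A: gaaatcagtaaCTATGCAtactgtaaccaa
MOV10: aaaatcttgttCTATGCAAaagccttga
AGO1: acccggatttgCTATGCAAaacaatctatc
The match of MOV10 ends near the end of its transcript, while the octamer of AGO1 lies at base 2040 of its 3′ UTR. AGO1 also held a separate CTATGCA at base 6232, which is not shown. TNRC6A lacks the last base of the octamer. Whether any of these matches is a site of an siRNA was not tested.

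**Figure D5:**
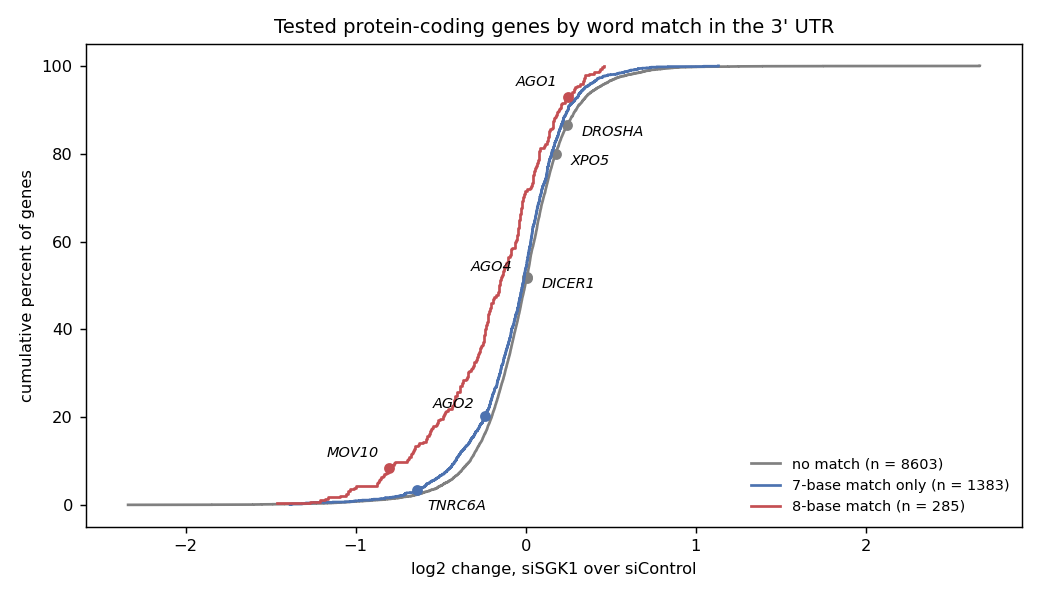
Cumulative percent of tested protein-coding genes (vertical axis) by log2 change (horizontal axis, siSGK1 over siControl), for genes with the 8-base word (n = 285), with only a 7-base word (n = 1383) and with none (n = 8603) in the longest 3′ UTR, with the 7 tested members and MOV10 as dots on the line of their class. The line of the 8-base class lies to the left, with MOV10 low on it and AGO1 near its top.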

How the data were processed

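The deposited values are FPKM, 1 column per library, with gene names, positions and lengths. Per the submitters' processing notes, bcl2fastq 2.19, HISAT2 2.0.5 and featureCounts 1.5.0-p3 were used with build hg19, but 97.5% of 58039 gene identifiers have their GENCODE 29 position, the 10 members included, so positions are read as GRCh38. The strand setting is not given in the sources used here. FPKM times gene length was a whole multiple of one step for 100% of values (tolerance 0.001), which gave the reads. The deposited FPKM carry median-of-ratios size factors.

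log2(FPKM + 0.5) was tested with limma 3.58.1 in R 4.3.3 (empirical Bayes with trend, two-sided, mean FPKM at least 1, Benjamini-Hochberg over all genes, called below 0.05). The pseudocount understates changes of low genes. Where libraries are technical rather than separate cultures, p-values measure only that spread. No batch is labelled. Named genes are the members, SGK1 and, from 7 partner lists (71 genes, 3 matched by identifier), up to 3 tested genes with the smallest p. The members and lists were chosen with earlier results of these data known. Lists are described by counts and medians.

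Alternatives were the pseudocount, the level filter, quantile, total-read and TPM scaling, voom on recovered reads, a replicate block and leaving out each library. Voom over genes with at least 10 reads and family shares by reads were added after seeing the data.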

Additional observations from a re-analysis of the deposited data

How the results depend on the processing

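TNRC6A, DROSHA and SGK1 kept their direction and call under every alternative in which they were tested, and DICER1 and AGO4 were not called under any. With a mean FPKM of at least 5 only DROSHA and XPO5 of the members were tested, so 2 members were called and 0 of them lower, and 1282 genes in all were called higher. Without the level filter XPO5 kept its log2 change of 0.18 but not its call (adjusted p = 0.091). AGO2 lost its call under total-read scaling (−0.12) and TPM scaling (−0.069), which left 1 member called lower in each. Total-read scaling called 4309 genes higher and 1546 lower, and TPM scaling 5645 and 1171, against 2143 and 2709 as deposited.

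Leaving out each library in turn gave log2 changes of 0.14 to 0.22 for XPO5, 0.22 to 0.27 for AGO1, −0.27 to −0.21 for AGO2 and −0.67 to −0.59 for TNRC6A. Between 2 members (without siControl replicate 3) and 5 members were called, 1 to 3 of them higher and 1 to 2 lower. Correlations of deviations between same-numbered libraries were 0.12, 0.014 and −0.10 for replicates 2, 3 and 4. Those between libraries of different number ran from −0.16 to 0.15. Deviations from a mean of 3 libraries cannot exclude a pairing, and the main fit did not use one. With the replicate number as a block 4560 genes were called against 4852, and the log2 change of XPO5 stayed 0.18 with an adjusted p of 0.067. The cause of these losses was not tested. By reads, TNRC6A's share of its family differed by −12.2 percentage points, against −10.6 by FPKM. AGO3, TNRC6B and TNRC6C had 214 to 728 reads per library over gene lengths of 11111 to 21157 bases, and the FPKM minimum kept them from the test.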
